A study of Mus musculus with 6 samples.

Results

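The 50 genes described here encode the proteins that copy nuclear DNA and supply its building blocks: the factors that load and start the replicative helicase, the sliding clamp and its loader, the polymerases and primase, the enzymes that finish the lagging strand, the enzymes of deoxynucleotide synthesis, and the factors that rebuild chromatin behind the fork. They were chosen by name, as a list of known replication genes, and all 50 had a row among the 21255 genes of the deposited table. All 50 also passed the minimum mean of 10 normalized counts that was set for tests, as did 13803 genes in all. The gene symbols were matched to the Ensembl identifiers of the table.

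The RNA came from small intestinal organoids, which are cultures of crypts from the jejunum that grow in Matrigel with a crypt-like and a villus-like part. The study compared organoids that carry floxed C/EBPα (C/EBPα Flox/Flox) and the VillinCreERT2 transgene, in which the villin promoter limits the recombinase to intestinal epithelium (C/EBPα KO), with C/EBPα Flox/Flox organoids that lack the transgene (control, named wildtype in the labels). Organoids of both groups received 4-hydroxytamoxifen (4-OHT), according to the labels at 400 nM over 2 days, while the paper's methods give a higher dose over the same time. The labels list 3 control and 3 C/EBPα KO libraries, but among the names of the value columns only those of S1, S2 and S3, all control, match a label. The other 3 value columns were not used, so the effect of the knockout was not analysed here, and the values below describe the replication genes in control organoids. The age and strain of the mice were not used here, and no label says whether the 3 libraries came from separate animals or cultures.

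In a dividing cell, the origin recognition complex (ORC), CDC6 and CDT1 load rings of the MCM2-7 helicase on DNA during G1. CDC45 and the GINS complex then turn the loaded rings into active helicases at the start of S phase, and polymerases α, δ and ε copy the opened strands. Most of these genes are targets of the E2F transcription factors, which are held back by the retinoblastoma protein until a cell commits to S phase. In the intestine, replication is a property of crypt stem cells and of the transit-amplifying cells above them, while differentiated villus cells have left the cell cycle. In RNA of whole organoids, a larger share of dividing cells and more RNA per dividing cell cannot be told apart.

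Throughout, 3 values given together are those of S1, S2 and S3, in this order. The libraries held 36.8, 32.9 and 30.4 M reads on genes, and enterocyte transcripts such as Sis (252952, 262861 and 269555 normalized counts) as well as Paneth, goblet, enteroendocrine and stem cell transcripts were found in each. Of the mesenchymal markers, Col1a1 and Col1a2 were at 0 or at a single read and Pdgfra was at most 3.45, while Vim had 145, 123 and 189.9 normalized counts (adjusted p = 0.004). Of the leukocyte markers, Ptprc was at most 2.84 and Cd68 had 16.1, 10.7 and 23.0. Cebpa, the gene targeted in the study, had 6446, 5829 and 6016 normalized counts. The S1 library stood apart from S2 and S3 in its sex-linked transcripts: Xist, the RNA that silences an X chromosome, was at 18.9 normalized counts in S1 but at 15423 and 14769 in the other libraries, while the Y-linked gene Eif2s3y was at 1999 in S1 and at 105 and 11.5 in the others. The calls of a difference between the libraries are therefore also given without S1, while CVs are given over all 3 libraries.

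The start of a replication gene often carries the sequence to which E2F factors bind, and the RefSeq promoter windows (GRCm38.p6, 250 bases before to 50 bases after a gene's start) were searched for it on both strands. The letters searched were TTTCCCGC, TTTCGCGC, TTTGCCGC and TTTGGCGC. The table gave 48 windows for 42 of the 50 genes, some of which have more than 1 start. Of these 42, 17 (40.5%) held at least 1 octamer in any window, beside 450 of 9796 protein-coding genes tested that had a window (4.59%). With the first window of each gene alone, 15 of 42 (35.7%) did, beside 4.06%. For each of Orc1, Cdc6, Mcm5, Mcm6, Mcm7, Gins3, Pola1 and Uhrf1, 1 octamer upstream of the start is shown here, as examples of a sequence that genes of different roles share (Dtl and Rfc3 also held an octamer just upstream of the start). Capitals mark that octamer and no other, each stretch reads 5′ to 3′ along the strand of the gene, and the position is that of the octamer's first base, with the start as 0.
Orc1, chr4:108579411-108579450, + strand, position -27: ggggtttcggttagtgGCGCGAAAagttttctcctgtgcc
Cdc6, chr11:98907997-98908036, + strand, position -138: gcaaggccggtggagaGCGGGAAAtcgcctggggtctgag
Mcm5, chr8:75109340-75109379, + strand, position -153: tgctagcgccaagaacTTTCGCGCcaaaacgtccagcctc
Mcm6, chr1:128359729-128359768, - strand, position -47: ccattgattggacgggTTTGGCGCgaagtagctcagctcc
Mcm7, chr5:138172025-138172064, - strand, position -165: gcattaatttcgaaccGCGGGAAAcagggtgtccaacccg
Gins3, chr8:95633502-95633541, + strand, position -41: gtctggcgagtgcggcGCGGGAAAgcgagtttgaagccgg
Pola1, chrX:93632270-93632309, - strand, position -138: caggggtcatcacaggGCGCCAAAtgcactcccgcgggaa
Uhrf1, chr17:56304112-56304151, + strand, position -185: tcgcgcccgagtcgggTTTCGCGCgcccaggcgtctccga

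The octamers were spread unevenly over the roles. Of the helicase loading genes, 7 of the 9 with a window held an octamer (Orc1, Cdc6, Cdt1, Mcm3, Mcm5, Mcm6 and Mcm7), and Orc6 and Mcm2 held none. Of the 5 genes of nucleotide supply, all had a window and 0 held an octamer. The count was 3 of 6 for helicase activation and fork protection (Gins3, Clspn and Dtl), 4 of 7 for polymerases and primase (Pola1, Pold1, Pold3 and Pole2), and 1 of 5 each for the clamp and its loader (Rfc3), for flap processing, ligation and single-strand binding (Lig1), and for the chromatin factors (Uhrf1). By sequence, TTTCGCGC was found in 8 of the 42 genes (0.745% of the genes tested), TTTCCCGC in 7 (2.32%), TTTGGCGC in 7 (1.10%) and TTTGCCGC in 0 (0.623%), and some genes held more than 1 of them. In Mcm5 a pair of octamers overlapped at positions -153 and -149, and in Mcm6 a further pair overlapped at positions -110 and -106.

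When the 50 bases after the start were left out, 10 of the 42 genes (23.8%) held an octamer upstream of the start, beside 3.86% of the genes tested. By role these were 5 of 9 for helicase loading, 2 of 6 for helicase activation and fork protection, 1 of 7 for polymerases and primase, 1 of 5 each for the clamp and its loader and for the chromatin factors, and 0 of 5 each for the other two roles. The CCAAT box, searched as CCAAT on both strands, was present in 26 of the 42 genes (61.9%) and in 43.6% of the genes tested. The windows of the 42 genes had a median GC content of 63.0%, and those of all genes tested 61.8%. The 17 genes with an octamer had a median level of 1395 normalized counts, and the 25 genes with a window and no octamer 1739, neither corrected for length. A match describes these letters in this window, and no binding was measured.

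**Figure D1:**
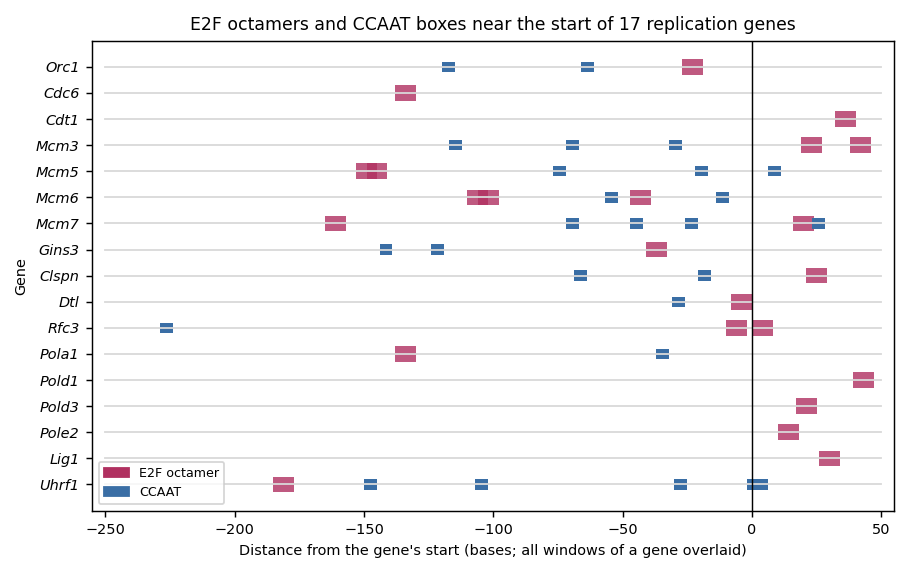
Position of E2F octamers (red) and CCAAT boxes (blue) from 250 bases before to 50 bases after the gene's start (x axis, bases, start at 0, with all windows of a gene overlaid) in the 17 replication genes with an octamer (y axis). In 10 of the 17 genes an octamer lies upstream of the start, and in Mcm5 and Mcm6 octamers overlap.

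Every one of the 50 replication genes was read in every control library. Their mean levels ran from 196 normalized counts for Gins3 to 7925 for Pcna, with a median of 1473 beside 805 over all genes tested, before any correction for gene length. Per kilobase (kb) of coding length, the scale on which different genes are compared below, their median was 1006 normalized counts, and 34 of the 50 were above the median of the genes tested (639.8). Together they held 0.279%, 0.268% and 0.269% of the reads. The lowest read number of any of the 50 genes in a library was 155 (Gins3 in S2), so each value of these genes rests on at least that many reads.

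**Figure D2:**
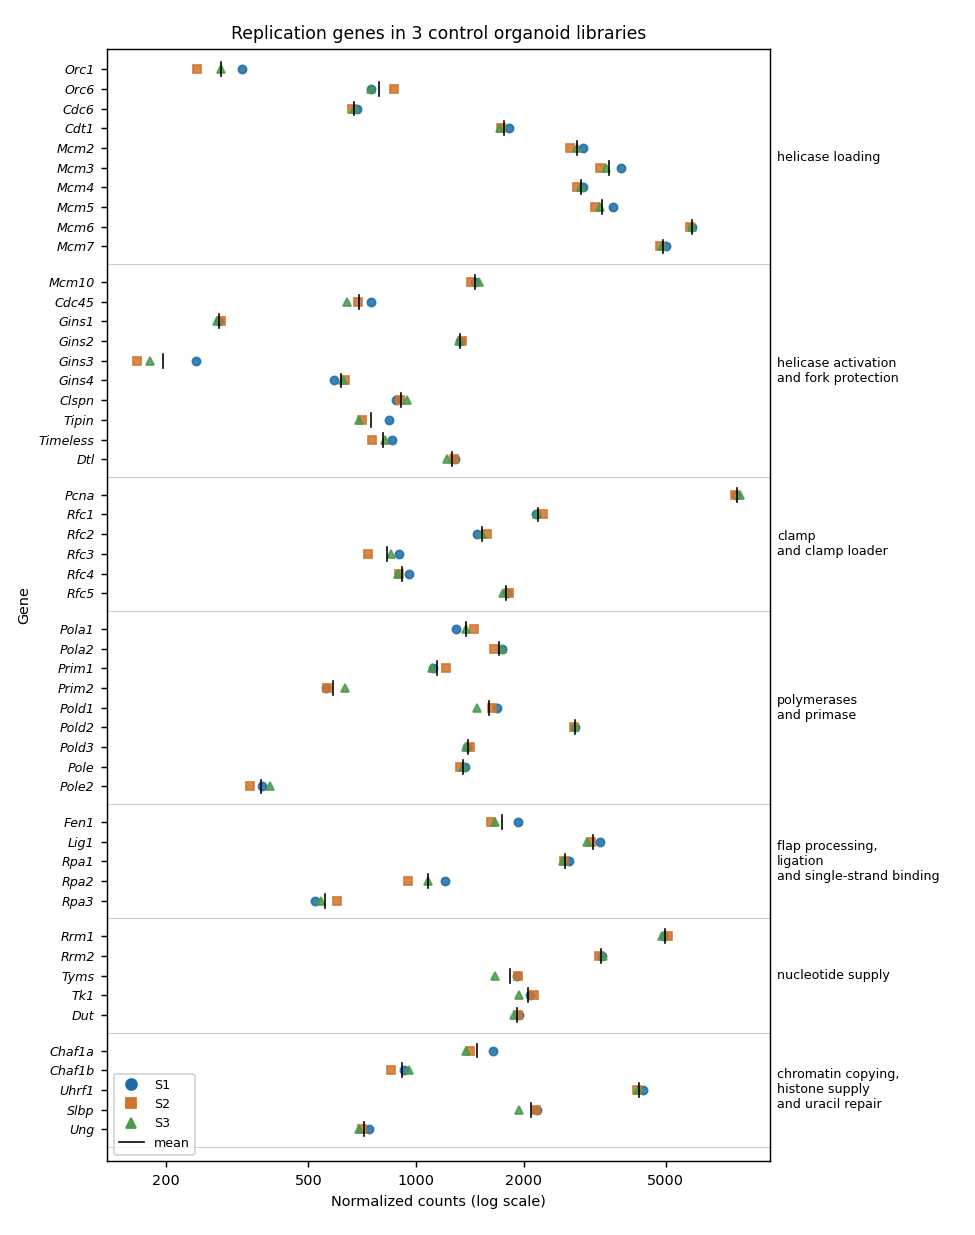
Normalized counts (x axis, log scale) of the 50 replication genes (y axis, grouped by role) in the control libraries S1 (circles), S2 (squares) and S3 (triangles), with the mean of the 3 libraries as a line. Levels run from 196 for Gins3 to 7925 for Pcna, and for most genes the 3 libraries lie close together.

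The levels of 3 libraries were compared by a chi-square test on the reads recovered for each gene, adjusted over all 13803 genes by the Benjamini-Hochberg method. Below, a gene is said to be within counting error where it did not reach an adjusted p under 0.05, which does not show that its levels were alike. This test asks whether libraries of the same group differ by more than counting error, and compares libraries, not conditions. At an adjusted p under 0.05, 17 of the 50 replication genes differed between the libraries, which is 34.0% beside a background of 40.9% of all genes tested. At an unadjusted p under 0.05 the numbers were 19 of 50 and 49.4% of all genes. The replication genes had a median of 4227 reads over the 3 libraries and the genes tested a median of 2300.0. With a minimum mean of 1 the shares were 34.0% of the replication genes and 33.5% of all genes, and with a minimum of 100 they were 36.0% and 46.6%, so which share is the larger depends on the minimum.

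The 10 helicase loading genes had a median of 1085 normalized counts per kb of coding length. Mcm6, a subunit of the MCM2-7 ring with the highest level per kb of the role, had 5929, 5859 and 5936 normalized counts, and these 3 values were within counting error (adjusted p = 0.81, chi-square test). Mcm7 had 5004, 4809 and 4886 normalized counts, Mcm4 had 2938, 2825 and 2902, and both were also within counting error. The other ring subunits varied more between the libraries. Mcm3 had 3747, 3265 and 3403 (adjusted p = 2.3e-07), Mcm5 had 3551, 3167 and 3264 (adjusted p = 4.5e-05), and Mcm2 had 2926, 2698 and 2825 (adjusted p = 0.029). In each of these 3 genes S1 was the highest library and S2 the lowest, and the highest value was 1.15, 1.12 and 1.08 times the lowest.

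Of the factors that load the ring, Cdt1 and Orc6 stood near the lowest ring subunit gene per kb (1053 and 1004, beside 1038 for Mcm2), and Cdc6 and Orc1 stood below it (380.2 and 113). Cdt1, which brings the MCM2-7 ring to the origin, had 1827, 1729 and 1724 normalized counts, and Cdc6, the ATPase that acts with ORC, had 682, 664 and 669.8. Both were steady between the libraries, with coefficients of variation (CV, the SD as a share of the mean) of 3.31% and 1.41%. Orc1, the largest subunit of ORC, had 325, 244 and 284 (adjusted p = 0.01). Orc6, its smallest subunit, had 748, 869 and 750.3 (adjusted p = 0.011), and was the single loading gene with its highest level in S2. In all, 8 of the 10 loading genes were highest in S1 and 8 of the 10 were lowest in S2. Of the 5 loading genes that differed between the libraries, Orc6 alone did so without S1, Mcm3 and Mcm5 did so without S2, and all 5 did so without S3. The exons of Orc6 overlap those of Vps35 on the opposite strand over 6.93% of their length (GENCODE M21, GRCm38), and Vps35 had a mean of 7478 normalized counts, so that reads of the overlap are uncertain if strand was not used in counting. Those of Mcm7 overlap Ap4m1 in the same way over 7.25% (1158 normalized counts for Ap4m1).

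The genes of helicase activation and fork protection had a median of 514 normalized counts per kb of coding length over 10 genes. Mcm10, which helps the helicase start, had 1464, 1425 and 1498 normalized counts, and the GINS subunit gene Gins2 had 1329, 1349.6 and 1318. Dtl, which directs the destruction of CDT1 in S phase, had 1283, 1276 and 1221. All 3 had a CV under that of the median replication gene (3.83%), and none differed beyond counting error.

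Gins3, another GINS subunit, had the fewest reads and the highest CV of the 50 genes. It had 242, 166 and 179.5 normalized counts, with a CV of 20.8%, where counting alone gives 7.34% (adjusted p = 0.0011). S1 was 1.46 times S2, and S2 and S3 lay close together. Of the other GINS genes, Gins1 had 280.1, 285 and 277 and Gins4 had 589, 632 and 623, with S2 highest in both and no difference beyond counting error. Cdc45, which joins GINS in the active helicase, had 746, 689 and 641 normalized counts (adjusted p = 0.054), and 5.96% of its exons overlap Ufd1 on the opposite strand (1139 normalized counts for Ufd1).

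The fork protection genes did not share an order of the libraries. Tipin had 839, 704 and 694 normalized counts (adjusted p = 0.00084). Timeless, whose protein binds TIPIN, had 856, 754 and 817 (adjusted p = 0.086), with S1 highest as for Tipin but S2 lowest. Clspn, the gene of the adaptor claspin that carries the checkpoint signal from stalled forks, had 880.0, 905 and 945, with S3 highest. Gins3 and Tipin were the 2 genes of this role that differed between the libraries. Neither did so without S1, both did so without S2 together with Cdc45, and both did so without S3 together with Timeless. The exons of Gins2 overlap those of Gse1 on the opposite strand over 67.3% of their length, and Gse1 had a similar mean level (1398 and 1332 normalized counts), so the level of Gins2 is uncertain if strand was not used in counting.

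Pcna, the sliding clamp that holds polymerases on DNA, had the highest level per kb of the 50 genes. It had 7876, 7822 and 8079 normalized counts, with a CV of 1.71%, and per kb it stood above 95.4% of the genes tested. Its pseudogene Pcna-ps2 had 0, 3.21 and 0 normalized counts. The genes of the clamp loader RFC ran from 641 normalized counts per kb (Rfc1, the large subunit) to 1759 (Rfc5). Rfc1 had 2161, 2264 and 2178 normalized counts, Rfc2 had 1482, 1578 and 1528, and Rfc5 had 1794, 1819.7 and 1753. S2 was the highest library in all 3, within counting error. Rfc3 was the exception in this role, with 898, 734 and 850.4 (adjusted p = 0.0012), and here S2 was the lowest library. The difference of Rfc3 was also found without S1 and without S3, but not without S2. Rfc4 had 959, 898 and 891, and its exons overlap those of Eif4a2 on the opposite strand (12.7% of their length, 11028 normalized counts), so the level of Rfc4 is uncertain if strand was not used in counting. The same holds for Rfc5, whose exons overlap those of Wsb2 over 10.7% (3098 normalized counts for Wsb2 and 1789 for Rfc5).

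The 9 polymerase and primase genes had a median of 483 normalized counts per kb of coding length. They showed no common order of the libraries, with 3 of the 9 highest in S1, 3 in S2 and 3 in S3. Pold2, the small regulatory subunit of polymerase δ, had the highest level per kb of the role, with 2791, 2761 and 2789.5 normalized counts, and its CV of 0.610% was the lowest of the 50 genes. Pold3, another accessory subunit, had 1385, 1416 and 1383, and Pole, the catalytic subunit of polymerase ε, had 1375, 1326 and 1354. These levels were within counting error. Pold1, the catalytic subunit of polymerase δ, was lowest in S3, with 1686, 1635 and 1479 (adjusted p = 0.0047).

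Polymerase α and primase make the short primers of each new strand. Pola1, the catalytic subunit, had 1294, 1457 and 1382 normalized counts (adjusted p = 0.023). Pola1 lies on the X chromosome and was lowest in S1, the library with few Xist reads, and whether these go together was not tested. Pola2 had 1737, 1652 and 1741, and the primase subunit genes Prim1 and Prim2 had 1117, 1209.6 and 1108, and 559, 565 and 631. Prim1 was thus highest in S2 and Prim2 in S3, neither beyond counting error (adjusted p = 0.14 and 0.15). Pole2, the second subunit of polymerase ε, had 371, 344 and 390.1. Of the 2 genes that differed between the libraries, Pold1 did so without S1 and without S2 but not without S3, and Pola1 did so without S3 alone.

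Over all 3 libraries, the genes that finish the lagging strand and bind single strands had the highest median CV of the roles, 7.39% over 5 genes. Fen1, the nuclease that trims the flap between lagging-strand fragments, had 1928, 1626 and 1663 normalized counts (adjusted p = 1.7e-06). Lig1, the ligase that seals the fragments, had 3273, 3092 and 3019.7 (adjusted p = 0.016). S1 was the highest library for both. The RPA complex, which coats single-stranded DNA, has 3 subunits whose genes did not share an order of the libraries. Rpa1 had 2675, 2603 and 2584 and was within counting error. Rpa2 had 1209, 951 and 1084 (adjusted p = 2.3e-06), with S1 highest, while Rpa3 had 522, 602 and 543 (adjusted p = 0.1), with S1 lowest. Rpa2 differed between the libraries whichever was left out, Fen1 did so without S2 and without S3 but not without S1, and Lig1 did so without S2 alone. The rank of this role by CV depended on S1. Between S2 and S3, the levels of Fen1, Lig1 and Rpa1 lay close together, while those of Rpa2 and Rpa3 lay further apart. The exons of Fen1 overlap those of Gm10143 on the opposite strand over 78.8% of their length, but Gm10143 had a mean of 31.2 normalized counts. They also overlap those of Tmem258 on the opposite strand over 5.37%, where Tmem258 had a mean of 1613 beside 1739 for Fen1, so reads of that overlap are uncertain if strand was not used.

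The 5 genes of nucleotide supply had a median of 2824 normalized counts per kb of coding length. Their median CV over all 3 libraries was 1.91%, the lowest of the 7 roles. Without S1 this role did not have the lowest median CV. Rrm1 and Rrm2, the large and the small subunit of ribonucleotide reductase, had 4962, 5076 and 4886 normalized counts, and 3319, 3256 and 3336. Dut, whose enzyme removes dUTP so that uracil is not built into DNA, had 1937, 1929 and 1877. Their CVs were 1.91%, 1.28% and 1.70%, and none differed beyond counting error. The genes of thymidine supply had a lower level in S3 than in the other libraries. Tyms, which makes thymidylate anew, had 1917, 1934 and 1665 (adjusted p = 0.0001), and Tk1, which salvages thymidine, had 2089, 2140.3 and 1941 (adjusted p = 0.027). Both differed without S1, Tyms did so without S2, and neither did so without S3. In this role 4 of the 5 genes were lowest in S3.

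Of the chromatin, histone and uracil repair genes, Uhrf1, which brings the maintenance DNA methyltransferase to newly copied DNA, had 4319, 4147 and 4176 normalized counts, within counting error. Slbp, which binds the stem-loop of histone mRNA, was lower in S3 than in S1 and S2, with 2175, 2170.2 and 1948 (adjusted p = 0.003). The subunit genes of the histone chaperone CAF-1 differed in their order. Chaf1a had 1645, 1421 and 1383 (adjusted p = 1.3e-05), and Chaf1b had 926, 851 and 955 (adjusted p = 0.11), with S3 highest. Ung, the uracil glycosylase, had 739, 708 and 694, within counting error. Slbp differed between the libraries without S1 and without S2 but not without S3, and Chaf1a without S2 and without S3 but not without S1. The exons of Chaf1a overlap those of Ubxn6 on the opposite strand over 52.5% of their length, and Ubxn6 had a mean of 1442 normalized counts beside 1483 for Chaf1a, so the level of Chaf1a is uncertain if strand was not used in counting.

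Between the libraries, the replication genes leaned to S1. The lean was not particular to the 50, since 23 of 42 further genes of replication and nucleotide metabolism, described below, were also highest in S1. Of the 50 genes, 27 (54.0%) had their highest level in S1, beside 37.0% of all genes tested, 14 (28.0%) in S2, beside 29.9%, and 9 (18.0%) in S3, beside 33.1%. Of the genes that also differed beyond counting error, 13 were highest in S1 (26.0% of the 50, beside 15.3% of all genes), 4 in S2 (beside 11.9%) and 0 in S3 (beside 13.7%). Against S2 alone, 34 of the 50 were higher in S1 (50.7% of all genes), and against S3 alone 35 were (50.4% of all genes). Between S2 and S3 the genes were nearly even, with 26 of the 50 higher in S2 (47.6% of all genes). Without S1, the number of replication genes that differed was 7 of 50, beside 16.8% of all genes.

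The lean to S1 was small. The log2(normalized count + 1) of S1 minus the mean of S2 and S3 had a median of 0.037 over the 50 genes. Over the 42 further genes its median was 0.043, and over all genes tested 0.005. Its range over the 50 genes was from -0.13, reached by Pola1 and Rpa3, to 0.49 for Gins3. By role, the median was 0.099 for flap processing, ligation and single-strand binding, 0.076 for the chromatin factors, 0.064 for helicase loading, 0.026 for nucleotide supply and 0.021 for helicase activation and fork protection. It was 0.008 for polymerases and primase and -0.003 for the clamp and its loader.

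**Figure D3:**
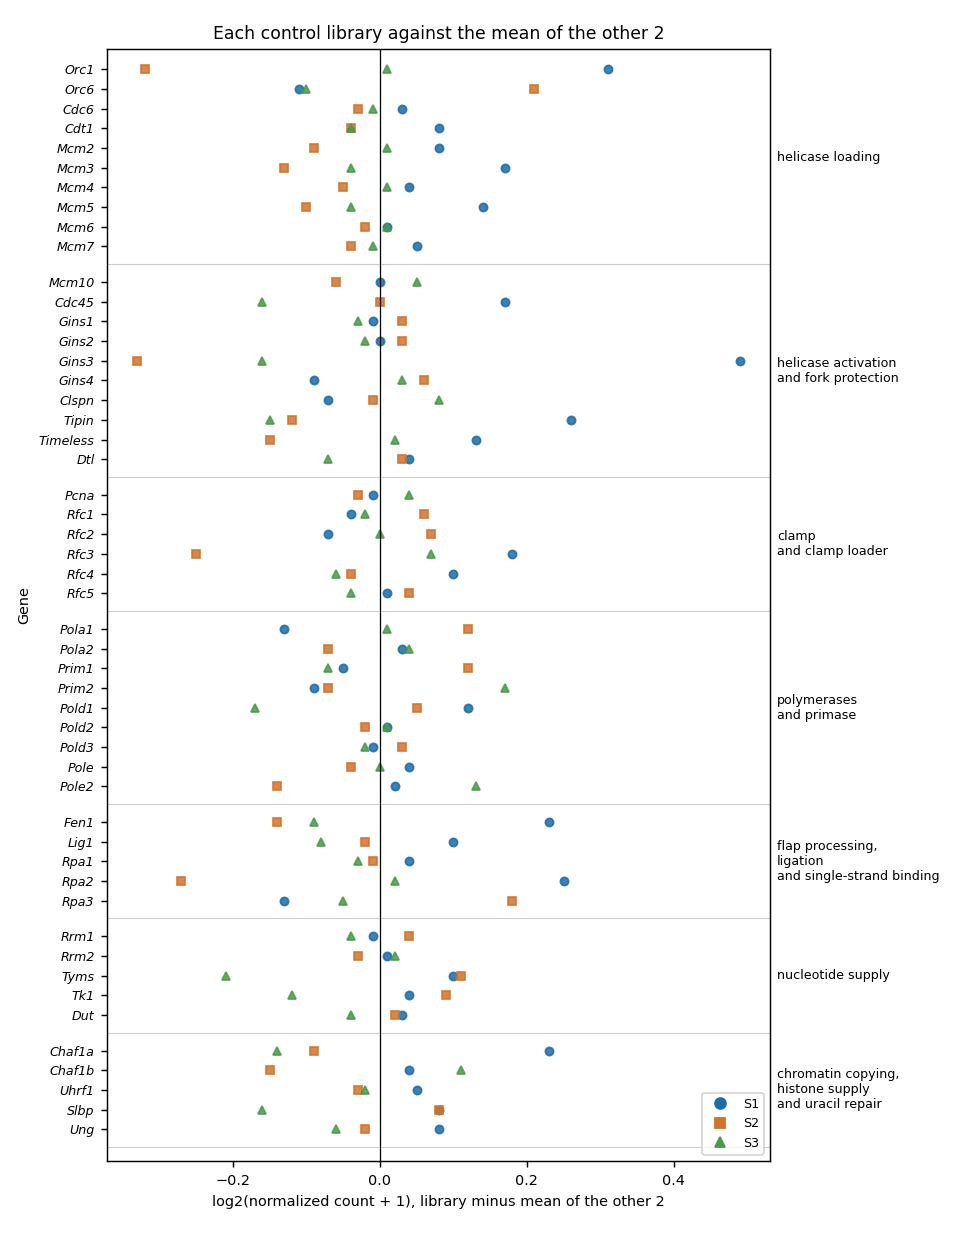
Difference of log2(normalized count + 1) between each control library and the mean of the other 2 libraries (x axis) for the 50 replication genes (y axis, grouped by role), with S1 as circles, S2 as squares and S3 as triangles. Most S1 points of helicase loading lie right of 0, Gins3 reaches 0.49, and Tyms lies lowest in S3.

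Several other features of the libraries moved with S1. S1 had the most reads and the sex-linked pattern given above. The summed level of the 4 Paneth cell markers Lyz1, Defa24, Mmp7 and Ang4 was 86162 in S1, 96209 in S2 and 105209.9 in S3, that of the 4 goblet cell markers was 58259, 63107 and 68218, and that of the 3 enteroendocrine markers was 8416, 10849 and 12251. All 3 sums were lowest in S1 and highest in S3, and of these markers 3 of 4, 3 of 4 and 2 of 3 were lowest in S1. The 3 tuft cell markers summed to 307, 357 and 388, also lowest in S1, while the 4 enterocyte markers summed to 497984, 522928 and 491968, lowest in S3 and highest in S2. The 4 stem cell markers summed to 24160.4 in S1, 21738 in S2 and 21816 in S3, of which Olfm4 and Ascl2 were highest in S1 and Lgr5 and Smoc2 in S2. Of 5 genes of proliferation outside the list, Ccnb1 alone was highest in S1 and the other 4 were highest in S2. Their S1 level minus the mean of S2 and S3 had a median of 0.026 on the log2 scale, with -0.06 for Mki67 and -0.05 for Top2a but 0.03 for Cdk1, 0.05 for Birc5 and 0.08 for Ccnb1. The part of these differences in the levels of the replication genes was not tested.

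The spread between the control libraries was small for replication genes. Their median CV was 3.83%, from 0.610% for Pold2 to 20.8% for Gins3, while all genes tested had a median of 6.62%. The median that counting alone gives was 2.68% for the replication genes and 3.62% for all genes, which leaves a median of 2.29% and 4.68% beyond counting error. The replication genes were thus steadier than the median gene on both measures, with no test made of the difference. Their median level was also higher (1473 beside 805 normalized counts), and genes were not matched by level. Other sets had a similar median CV: 3.12% for the 5 proliferation genes, 3.90% for the 4 enterocyte markers and 4.20% for the 42 further genes. The stem, Paneth, goblet, enteroendocrine and tuft cell markers had higher ones (10.1%, 13.9%, 7.28%, 17.4% and 17.9%). Between S1 and S2, S1 and S3, and S2 and S3 the median absolute log2 difference was 0.0640, 0.0620 and 0.0545 for the 50 genes and 0.118, 0.121 and 0.0966 for all genes. By role, the median CV over all 3 libraries was 1.91% for nucleotide supply, 2.83% for the clamp and its loader, 3.60% for helicase activation, 3.68% for helicase loading, 4.89% for polymerases and primase, 5.93% for the chromatin factors and 7.39% for flap processing, ligation and single-strand binding. This order depended on S1. Without S1, flap processing, ligation and single-strand binding no longer had the highest median CV, and nucleotide supply no longer had the lowest.

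**Figure D4:**
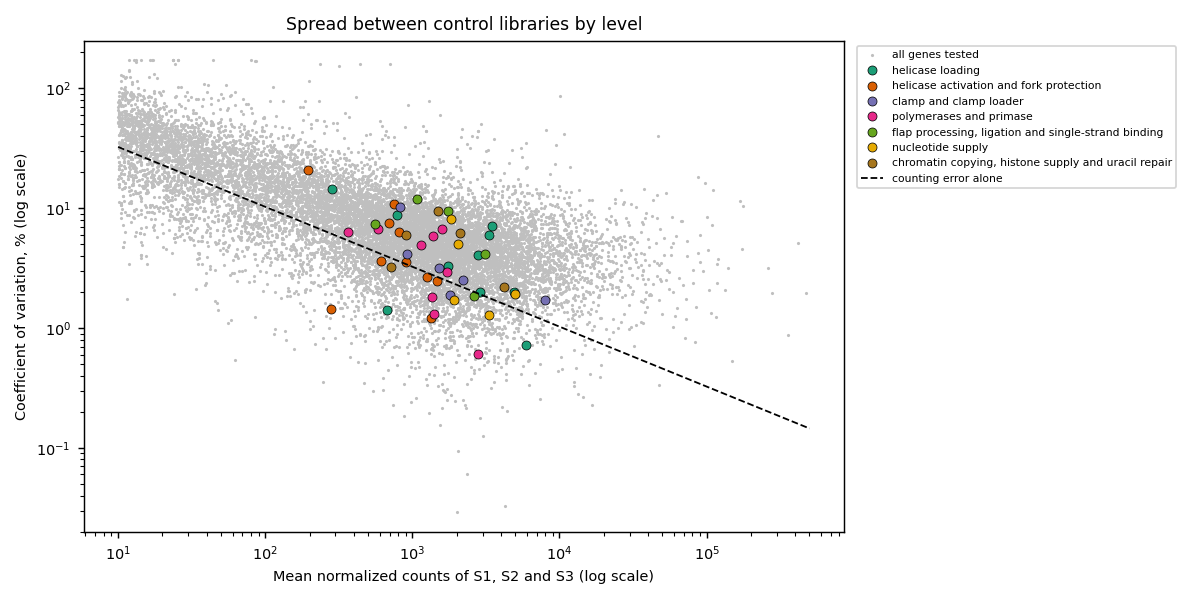
CV of the 3 control libraries (y axis, %, log scale) against their mean normalized counts (x axis, log scale) for all genes tested (grey) and the 50 replication genes (coloured by role), with the CV that counting error alone gives as a dashed line. The replication genes lie within the cloud of all genes, from 0.610% for Pold2 to 20.8% for Gins3.

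Levels of different genes were compared per kb of coding length, since a longer mRNA gives more reads. Coding length leaves out the parts of an mRNA that do not code, and these are long in some genes. In Gins2 the coding length is 555 of 3900 bases. The role medians per kb given above are on the scale of coding length alone. On this scale Pcna had 10122 ± 173 normalized counts per kb (SD, n = 3), which was the highest of the 50 genes, and Orc1 had 113 ± 16.2, which was the lowest, a ratio of 89.7. After Pcna came Dut with 3190.3 ± 54.2, Tk1 with 2943 ± 148 and Rrm2 with 2824 ± 36.2, so 3 of the 4 highest genes were genes of nucleotide supply. Slbp with 2543 ± 157, Gins2 with 2400.4 ± 29.1, Mcm6 with 2399 ± 17.3, Mcm7 with 2272 ± 45.5, Rrm1 with 2094 ± 40.1 and Tyms with 1996 ± 163 followed. All 5 genes of nucleotide supply were among the 10 highest per kb of coding length, with Tyms overlapping Pold2, the next gene in the order. By whole mRNA 4 of the 5 (all but Tyms) were among the 10 highest, and without a length 2 were (Rrm1 and Rrm2). The lowest levels were those of Orc1, Pole (197 ± 3.58), Timeless (225 ± 14.3), Clspn (231 ± 8.29) and Pole2 (233 ± 14.6).

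The order of neighbours on this scale was often not resolved. Of the 49 pairs of neighbours in the order, 34 overlapped in the range of their 3 libraries. Pcna did not overlap Dut, and Dut did not overlap Tk1, while Tk1 overlapped Rrm2. The scale also set part of the order: with the length of the whole mRNA in place of the coding length, 7 of the 10 highest genes were the same and the ratio of highest to lowest was 67.2, and with no correction for length 5 were the same and the ratio was 40.5. On both of these scales Gins3 was the lowest gene in place of Orc1.

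Subunits that join in a complex were compared on the same scale, as far as their genes are among the 50. The 6 genes of the MCM2-7 helicase spanned a ratio of 2.31, in the order Mcm6, Mcm7, Mcm5, Mcm3, Mcm4 and Mcm2 in every library. Mcm5 (1511 ± 90.7) and Mcm3 (1425 ± 102) overlapped, and the other neighbours in this order did not. The genes of ribonucleotide reductase stood at 2824 for Rrm2 and 2094 for Rrm1, a ratio of 1.35 with no overlap. Per coding length the RPA genes had a ratio of 1.15, from 1335 ± 159 for Rpa2 to 1531 ± 113 for Rpa3, and the CAF-1 genes had a ratio of 1.02, with 543 ± 51.9 for Chaf1a and 531 ± 31.5 for Chaf1b. Within S1, S2 and S3 the ratios were 1.08, 1.41 and 1.12 for RPA and 1.12, 1.05 and 1.10 for CAF-1. The order of the subunits differed between libraries in both, and Chaf1b stood above Chaf1a in S3. The level of Chaf1a carries the uncertainty of its overlap with Ubxn6. The ratios of the means also depend on the length used. Per length of the whole mRNA they were 1.49 for RPA and 1.79 for CAF-1, where Chaf1b was the higher, and without a correction for length they were 4.72 and 1.63. For ribonucleotide reductase they were 1.21 and 1.51, with Rrm1 the higher without a correction, and for MCM2-7 they were 2.52, with Mcm4 as the lowest, and 2.10.

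The GINS genes spanned a ratio of 7.94, with Gins2 at 2400.4, Gins4 at 919 ± 33.1, Gins1 at 478 ± 6.87 and Gins3 at 302 ± 63.0, none of which overlapped in range. Per length of the whole mRNA this ratio was 5.86 and Gins4 was the highest, while Gins3 remained the lowest. The level of Gins2, and with it the ratio of 7.94, carries the uncertainty of the overlap of its exons with those of Gse1. In polymerase δ, Pold2 (1976 ± 12.1) stood at 4.09 times Pold1 (483 ± 32.6), with Pold3 (1009 ± 13.2) between them. Without a length the ratio of the highest to the lowest of these 3 was 1.99, from Pold2 to Pold3. Pold4, a further subunit gene of polymerase δ outside the list, was higher than these 3 per kb of coding length, at 2685. In polymerase α-primase, Pola2 (950.1 ± 28.0) stood at 3.03 times Pola1 (314 ± 18.6), while in S2 Prim1 stood above Pola2. In RFC, Rfc5 (1759 ± 33.3) stood at 2.74 times Rfc1 (641 ± 16.1), where the levels of Rfc4 and Rfc5 carry the uncertainty of their overlaps. The order in RFC did not hold on other scales: by whole mRNA Rfc4 was the highest and Rfc2 the lowest (a ratio of 2.34), and without a length Rfc1 was the highest and Rfc3 the lowest (2.66). The listed genes of polymerase ε stood at 233 for Pole2 and 197 for Pole, a ratio of 1.18, and without a length Pole stood at 3.67 times Pole2. The other subunit genes of polymerase ε, Pole3 and Pole4, were higher per kb of coding length, at 3411 and 1946. Per kb of coding length the catalytic subunit gene was the lowest of the listed subunits in polymerases α, δ and ε, and these are the longest coding sequences among them. By whole mRNA this held for polymerases α and ε but not for polymerase δ, where Pold3 was the lowest. Without a correction for length it held for none of the 3, and Prim2, Pold3 and Pole2 were the lowest of the listed subunits (Pold4 was below Pold3, at 862 normalized counts).

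**Figure D5:**
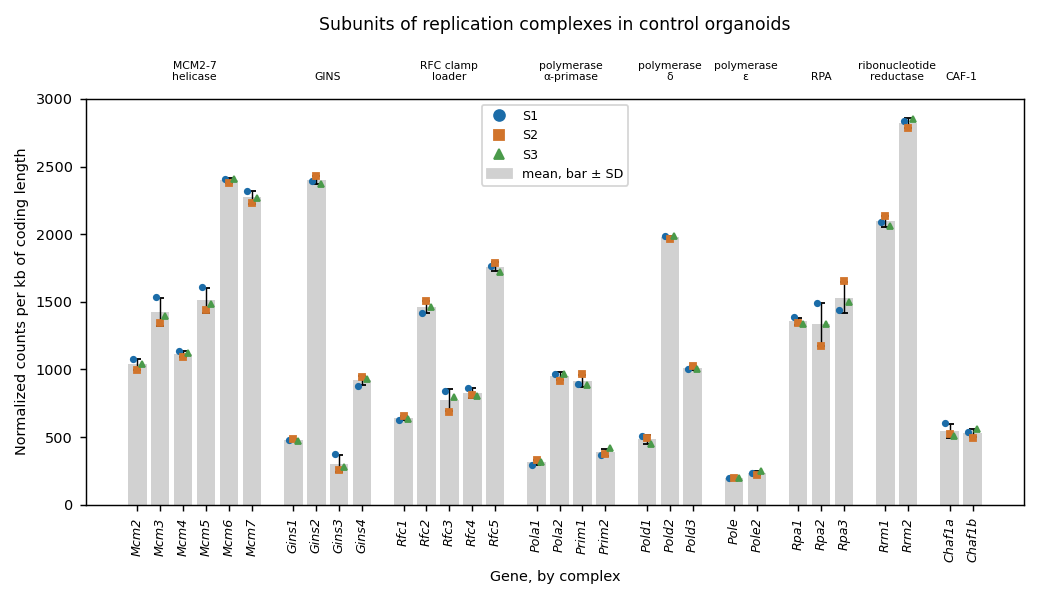
Normalized counts per kb of coding length (y axis) of the listed subunit genes of 9 replication complexes (x axis), as the mean of the 3 control libraries (bars) ± SD, with S1, S2 and S3 as points. On this scale the means of the RPA genes span a ratio of 1.15, those of the CAF-1 genes 1.02 and those of the GINS genes 7.94. The levels of Gins2 and Chaf1a are uncertain if strand was not used in counting. The RPA and CAF-1 ratios are larger with the whole mRNA length or no length.

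A list of 42 further genes of replication and nucleotide metabolism, compiled beside the 50, was read from the same test. All 42 were tested, and 18 (42.9%) differed between the libraries, beside the background of 40.9%. Their levels ran from 127 normalized counts for Rrm2b, the p53-induced small subunit of ribonucleotide reductase, to 11691 for Top2a, the topoisomerase that untangles copied DNA, with a median of 1151. Their median CV was 4.20%. Of the 42, 23 were highest in S1, 10 in S2 and 9 in S3, beside 37.0%, 29.9% and 33.1% of all genes tested. Dna2, the nuclease that acts with FEN1 on long flaps, had 1361, 1087 and 1127 normalized counts (adjusted p = 1.3e-07), in the same order of libraries as Fen1. Asf1b, a histone chaperone gene, had 1175, 1080.3 and 999 (adjusted p = 0.0042), highest in S1 and lowest in S3 as for Chaf1a. Dnmt1, the maintenance DNA methyltransferase that UHRF1 recruits, had 4742, 4903 and 5142 (adjusted p = 0.0019), with S1 lowest. These 3 were named after their values had been seen.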

How the data were processed

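Polyadenylated RNA was sequenced in paired ends with a strand-specific kit. According to the methods and the submitters' processing notes, the authors mapped reads with Bowtie2 2.2.9, quantified them with RSEM 1.2.31 and used DESeq2 1.14.1, with the genome build mm9. Whether strand was used in counting is not given in the sources used here. The deposited values are a signal per gene and library, named normalized counts, in 21256 rows. A repeated identifier (1 row) was dropped. Symbols were found for 21213 of 21255 identifiers. The 3 value columns whose names match no sample label were not used, so the planned test between genotypes was not run.

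Divided by what 1 read is worth in its library (0.946, 1.07 and 1.15 for S1, S2 and S3), 100.0% of the values came out whole, within 0.0100 of a read. A library's reads on genes were thus recovered: 36819530, 32898280 and 30405545. No second group remained for a count test with a fitted dispersion. Each gene with a mean of at least 10 was tested by a chi-square of its reads against the split that the library factors give, with Benjamini-Hochberg adjustment and a threshold of 0.05. PCR reads are not independent molecules, so p-values and CVs from counting cover counting error only, and p-values compare these 3 libraries. In a simulation of 13803 genes with no difference between libraries, 4.96% were below an unadjusted p of 0.05 and 0 were called, and of 200 genes doubled in a library 89.5% were called.

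Coding lengths are those of the longest coding sequence in GENCODE M21 (GRCm38), in place of the protein table that had been planned. The files' build (mm9) differs from that of the annotation, so no position is taken from the files. The promoter windows and the positions printed with them are those of RefSeq (GRCm38.p6). Every gene of the list is named, by role. The list of 50 genes, the 42 further genes, the markers and the motifs were chosen with earlier results of these data known. The alternatives were other scalings, pseudocounts of 0.1 and 5 in place of 1, minimum means of 1 and 100, other lengths, parts of the window, and leaving out each library. Scripts ran in Python 3.11.15 with scipy 1.17.1, pandas 2.3.3, numpy 2.4.6 and matplotlib 3.10.9.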

Additional observations from a re-analysis of the deposited data

How the results depend on the processing

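Making totals or upper quartiles equal shifted the libraries by between -0.007 and 0.006 on the log2 scale, so these settings hardly test the levels. The median level of 1473 normalized counts ranged from 1441 to 1493 when a library was left out. The ratio of the highest to the lowest gene per kb was 89.7, ranged from 84.2 to 96.9 when a library was left out, and was 67.2 per length of the whole mRNA and 40.5 without a length, which follows from the lengths used. The number of replication genes that differed between libraries was 17, or 17 to 18 with other minimum means or scalings (while the share over all genes ran from 33.5% to 46.6% with minimum means of 1 and 100), and ranged from 7 to 13 when a library was left out. Over all genes it ranged from 2321 to 4113 when a library was left out, beside 5645 with all 3. Both lowest values were those without S1, and the cause was not tested. With 2 libraries the test also has fewer reads. The number of genes highest in S1 was 27, and it was 30 when totals were made equal and 26 when upper quartiles were. Over all genes tested, the share highest in S1 was 37.0%, 39.1% and 36.7% with these 3 settings. Upstream bases alone gave 10 genes with an E2F octamer instead of 17, beside 378 instead of 450 over all genes tested with a window. In the replication genes that dropped out, every octamer found lay after the start. The count of genes highest in S1 and the count of genes with an E2F octamer were themselves not planned. Their settings, the length of the whole mRNA and the lengths with a library left out were chosen after seeing the data. The planned tests of the knockout against control, and their alternatives, were not run. No paired analysis was possible because libraries of 1 group were used and the labels of the groups share no replicate numbers. Depth limits the genes with the fewest reads: counting alone gives a CV of 7.34% for Gins3 and 6.09% for Orc1.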
